A study of Mus musculus with 12 samples.

Results

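The comparison described here is the main effect of losing Phlpp1 in mouse epiphyseal chondrocytes, measured by bulk RNA sequencing. All 12 of the 12 libraries of the series entered it, chosen by genotype alone: 6 libraries with Phlpp1 lost (Phlpp1 KO 1 to 3 and Phlpp1/2 KO 1 to 3) were set against 6 with Phlpp1 present (WT 1 to 3 and Phlpp2 KO 1 to 3). Phlpp2 was lost in 3 libraries of each side, and its status was a term of the model, so each gene's change is the part of its difference that goes with Phlpp1 at equal Phlpp2 status. The 4 genotypes were wild type (WT), a knockout of Phlpp1, a knockout of Phlpp2 and a knockout of both. Every sample was labelled as female and 5 days old. The strain was given as C57BL6 for 8 samples, as C57BL7 for Phlpp2 KO 3, and as C57BL8, C57BL9 and C57BL10 for Phlpp1/2 KO 1, 2 and 3. These last numbers rise by 1 from sample to sample in the order of the labels, and whether the strains truly differ is not given in the sources used here. Cells of the epiphysis, the cartilage end of a growing bone, were freed with collagenase, frozen, thawed, plated overnight in medium with serum and lysed. The labels name no tissue-specific driver for the knockouts, and they do not say which exons were removed, whether controls were littermates, or how many animals went into a sample. P values therefore measure the spread between these samples, which may be technical.

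PHLPP1 and PHLPP2 are protein phosphatases with a pleckstrin homology domain and leucine-rich repeats. They remove an activating phosphate from AKT and act on protein kinase C, S6 kinase and other kinases. Loss of a phosphatase acts first on proteins that are already made, so transcript levels report the response of the cell rather than the enzyme's own substrates. In cartilage, AKT and ERK signalling take part in chondrocyte proliferation, matrix production and the passage to hypertrophy, the swelling and mineralising stage of the growth plate.

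The libraries held between 21706337 and 33115345 counts. Levels are in CPM (counts relative to the library size after TMM scaling), and 1 count of a library equals 0.0302 to 0.0461 CPM. Of 49315 genes in the table, 16565 passed the filter on low counts and were tested. Across genes, given as a description, log2 CPM had a Pearson r of 0.986 to 0.993 between libraries of unlike Phlpp1 status and of 0.990 to 0.994 within genotypes. The cells carried the defining chondrocyte transcripts in every library, with Col2a1 at 20753 to 40258 CPM and Acan at 2993 to 4924 CPM. Both libraries numbered 1 on the Phlpp1-lost side were low in Xist, and 1 of them, Phlpp1/2 KO 1, went against the sex label. Phlpp1/2 KO 1 held Xist, the X inactivation transcript, at 3.77 CPM and 4 Y chromosome genes at a summed 108.5 CPM. Phlpp1 KO 1 held Xist at 13.9 CPM with 0 counts of those Y genes. Its Y genes do not contradict its label, but its Xist lay far below that of the other 10 libraries, at 278 to 587 CPM. No library of the Phlpp1-present side was low in Xist, so the main results are given with and without these 2 libraries.

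The targeted gene followed its label in all 12 libraries. Phlpp1 (ENSMUSG00000044340, chr1:106171752-106394250, mm10, plus strand) stood at 35.1 to 44.6 CPM (median 40.8) with Phlpp1 present and at 7.71 to 9.46 CPM (median 8.80) with Phlpp1 lost, and the groups did not overlap. Its log2 fold change was -2.22 (SE 0.07, edgeR adjusted p = 1.06e-09, here and below from the quasi-likelihood test, adjusted by Benjamini and Hochberg's method over all tested genes). Some Phlpp1 counts remained in every knockout library, and counts per whole gene cannot say from which exons. Phlpp2, the related phosphatase, averaged 25.5 ± 2.85 CPM (SD, n = 3) in WT and 24.2 ± 1.23 in Phlpp1 KO. It averaged 17.8 ± 1.43 in Phlpp2 KO and 10.9 ± 0.611 in Phlpp1/2 KO. For Phlpp2, the log2 fold change with Phlpp1 loss was -0.07 where Phlpp2 was intact and -0.70 in the Phlpp2 knockout (edgeR adjusted p = 0.699 and 0.0185), and the difference between these had an edgeR adjusted p of 0.151. In the additive model Phlpp2 fell with its own loss by 0.83 on the log2 scale (edgeR adjusted p = 0.0244). That term called 5 genes (0.0302%, of which 0.0121% higher and 0.0181% lower, with 6.27% at an unadjusted p under 0.05).

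The test over 12 libraries called few transcripts with loss of Phlpp1. Of the 16565 tested genes, 42 were called at an edgeR adjusted p under 0.05, which is 0.254% (19 higher, 0.115%, and 23 lower, 0.139%), while 13.1% of tested genes had an unadjusted p under 0.05. DESeq2 called 330 (116 higher and 214 lower). They were 38 protein-coding genes, 2 long intergenic RNAs and 2 pseudogenes. Most changes were small: 12 of the 42 changed at least 2-fold and 21 changed less than 1.5-fold, with a median absolute log2 fold change of 0.59 against 0.09 over all tested genes. In 38 of the 42 the 6 libraries without Phlpp1 lay wholly on 1 side of the 6 with it, which held for 1.09% of all tested genes (0.459% higher and 0.634% lower). The exceptions were Snapc1, Klhl30, H2-DMb1 and Zfand2a. The test that chose the 42 used these same values and favours such genes, so the count only describes them. The rule that names the largest rises and falls also asked for no overlap. The heat map of called genes shows each library's deviation.

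**Figure D1:**
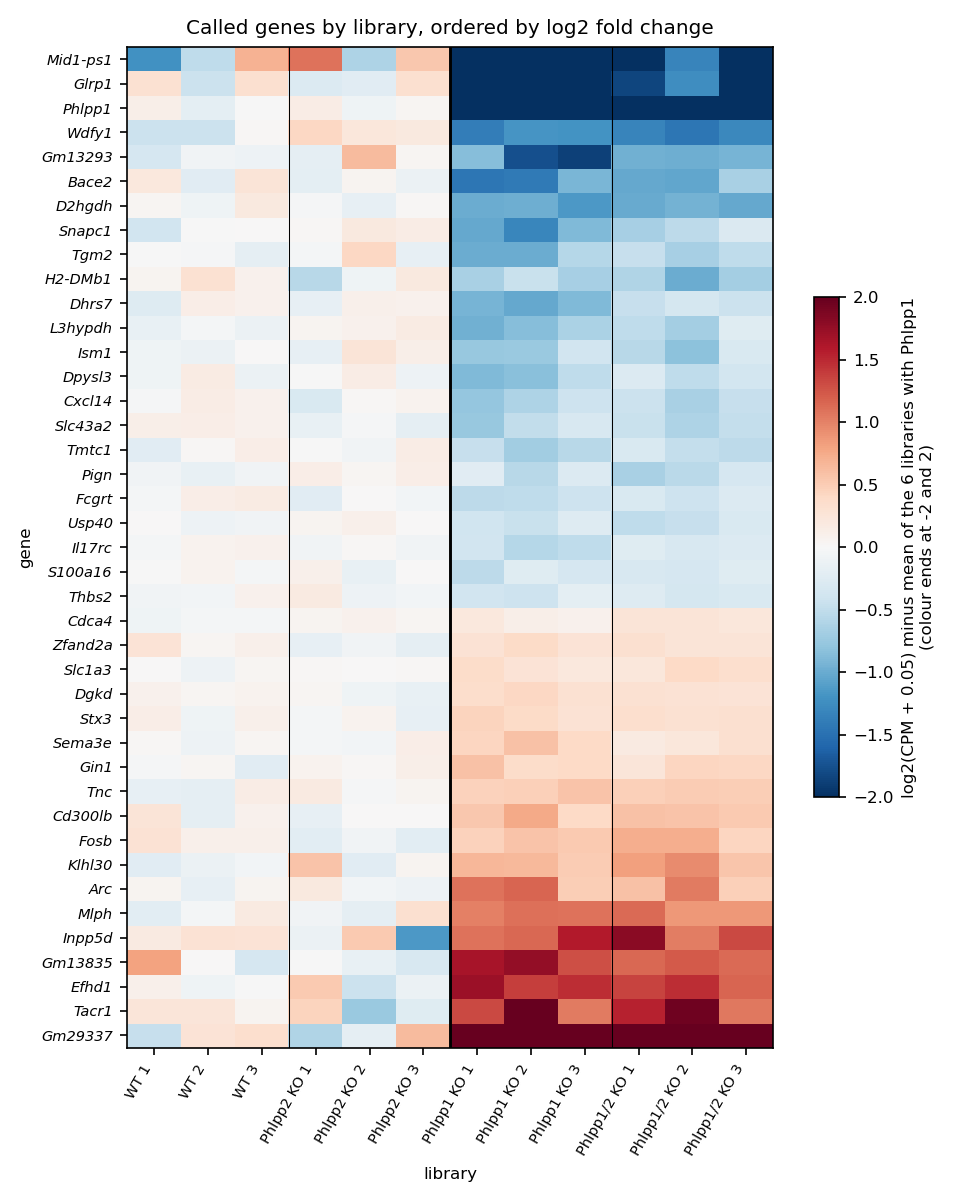
Each row is a called gene (1 of the 42 is not shown) and each column 1 of the 12 libraries; colour gives log2(CPM + 0.05) minus the mean of the 6 libraries with Phlpp1, and the thick line separates Phlpp1 present (left) from lost (right). Rows run from the largest fall to the largest rise, and most called genes show paler colours than Phlpp1, with falls often deeper in Phlpp1 KO than in Phlpp1/2 KO.

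The number of calls depended on the libraries. Refits that each left out 1 library called 16 of the 42 genes in all 12 refits and 20 of them in fewer than 6. Leaving out WT 2 or WT 3 gave 18 calls, Phlpp1 KO 1 gave 20, Phlpp1/2 KO 2 gave 21, Phlpp1 KO 2 gave 22, Phlpp2 KO 2 and 3 gave 26 and 27, and Phlpp2 KO 1 gave 555. The refit without Phlpp2 KO 1 called all 42 genes. Without both low-Xist libraries, 10 genes were called, all of them among the 42: Phlpp1, D2hgdh, Gm29337, Mlph, Wdfy1, Gm13835, Efhd1, Dgkd, Tnc and Gm13293. All 42 kept their sign without those 2 libraries, with log2 fold changes at 0.843 to 1.13 times the value from 12 libraries (median 0.978).

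Among the genes that rose were a matrix glycoprotein, a secreted guidance cue and immediate early genes. Tnc (tenascin C, a glycoprotein of the extracellular matrix; ENSMUSG00000028364, chr4:63959785-64047015) stood at 342 to 441 CPM (median 392) with Phlpp1 and at 533 to 574 CPM (median 542) without it. The 6 libraries without Phlpp1 lay close together and all above the other 6. The log2 fold change of Tnc was 0.49 (SE 0.06, edgeR adjusted p = 0.00298), and it was called in all 12 refits and without the low-Xist libraries (0.51, edgeR adjusted p = 0.0341). The gene 8030451A03Rik overlaps Tnc on the other strand, and the counting's strand setting is not given in the sources used here.

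Sema3e (a secreted guidance cue of the class 3 semaphorins; ENSMUSG00000063531, chr5:14025276-14256689) stood at 95.2 to 113 CPM (median 102) with Phlpp1 and 117 to 153 CPM (median 132) without. The 3 highest Sema3e libraries were the 3 Phlpp1 KO libraries, and the groups did not overlap. Sema3e changed on the log2 scale by 0.36 (SE 0.06, edgeR adjusted p = 0.0259, called in 4 refits). Without the low-Xist libraries its edgeR adjusted p was 0.0878.

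Arc and Fosb belong to the immediate early genes, which are transcribed within minutes of growth factor or calcium signals through kinases such as ERK. Arc (ENSMUSG00000022602, chr15:74669083-74672570) stood at 6.2 to 7.96 CPM (median 6.94) with Phlpp1 and at 9.66 to 15.6 CPM (median 12.4) without. The Phlpp1-lost libraries were spread widely but none overlapped the others. Arc changed on the log2 scale by 0.83 (SE 0.13, edgeR adjusted p = 0.0183, called in 5 refits), and its edgeR adjusted p was 0.0878 without the low-Xist libraries. Fosb, a subunit of the AP-1 transcription factor (ENSMUSG00000003545, chr7:19302696-19310051), stood at 2.71 to 3.85 CPM (median 3.20) and 4.25 to 5.28 CPM (median 4.64), again with no overlap. Its log2 fold change was 0.58 (SE 0.11, edgeR adjusted p = 0.0404, called in 3 refits). Fosb changed by 0.36 where Phlpp2 was intact and by 0.80 where it was lost, and this difference was not called (edgeR adjusted p = 0.281).

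Of membrane proteins, 3 rose by less than 1.5-fold. Cd300lb, an activating receptor of myeloid cells (ENSMUSG00000063193, chr11:114922781-114934386), stood at 10.2 to 13.9 CPM (median 11.7) with Phlpp1 and 15.3 to 19.7 CPM (median 17.1) without (log2 fold change 0.56, SE 0.08, edgeR adjusted p = 0.0109). It was called in all 12 refits, though in neither Phlpp2 background by itself. Slc1a3, a glutamate and aspartate transporter (ENSMUSG00000005360, chr15:8634124-8710764), stood at 20.1 to 22.2 CPM (median 21.7) and 25 to 28.5 CPM (median 26.6), with a log2 fold change of 0.31 (SE 0.05, edgeR adjusted p = 0.0179). Stx3, a syntaxin of membrane fusion (ENSMUSG00000041488, chr19:11775118-11819403), stood at 15.4 to 18.9 CPM (median 17.5) and 21.2 to 23.6 CPM (median 21.7), with a log2 fold change of 0.35 (SE 0.06, edgeR adjusted p = 0.0254). None of the 3 genes overlapped between groups, and without the low-Xist libraries their edgeR adjusted p ran from 0.0654 to 0.127. Among the smallest called changes was Cdca4, a cell division cycle associated gene, at 63.8 to 71.9 CPM with Phlpp1 and 72.0 to 81.6 CPM without (log2 fold change 0.19, SE 0.03, edgeR adjusted p = 0.0358).

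**Figure D2:**
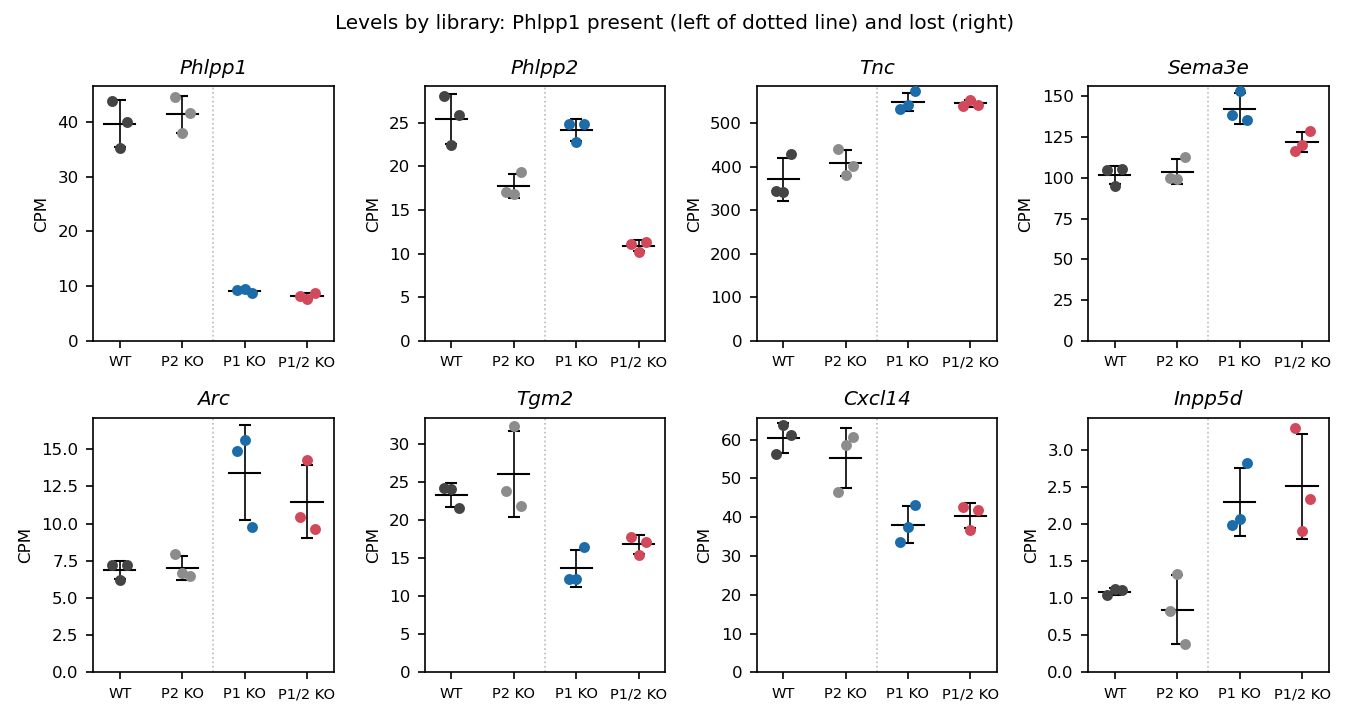
Each panel shows 1 gene in CPM on an axis from 0; points are libraries, the wide bar is the mean and the whiskers the SD of 3 libraries, with Phlpp1 present left of the dotted line and lost right of it (P1 KO, P2 KO and P1/2 KO stand for Phlpp1, Phlpp2 and Phlpp1/2 KO). Phlpp1 fell in both knockouts, Tnc, Sema3e, Arc and Inpp5d rose, Tgm2 and Cxcl14 fell, and Phlpp2 was lowest in Phlpp1/2 KO.

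The genes that fell away from chromosome 1 included secreted and matrix-modifying proteins. Cxcl14 (a chemokine; ENSMUSG00000021508, chr13:56288643-56296551) stood at 46.6 to 63.8 CPM (median 59.6) with Phlpp1 and at 33.7 to 43.1 CPM (median 39.7) without. No Phlpp1-lost library reached the lowest Phlpp1-present one, which was Phlpp2 KO 1. The log2 fold change of Cxcl14 was -0.56 (SE 0.08, edgeR adjusted p = 0.0109), called in all 12 refits, with an edgeR adjusted p of 0.0526 without the low-Xist libraries. Tgm2 (transglutaminase 2, an enzyme that cross-links matrix proteins; ENSMUSG00000037820, chr2:158116402-158146436) stood at 21.5 to 32.4 CPM (median 24.0) and 12.3 to 17.8 CPM (median 16.0). Tgm2 also did not overlap between groups, and its highest library was Phlpp2 KO 2. Its log2 fold change was -0.70 (SE 0.10, edgeR adjusted p = 0.0113), called in all 12 refits, with an edgeR adjusted p of 0.0878 without the low-Xist libraries. Up to 522 bases of the Tgm2 transcript are identical to Gm20412 or Rprd1b, and Rprd1b overlaps Tgm2 on the other strand.

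Ism1 (isthmin 1, a secreted protein; ENSMUSG00000074766, chr2:139678178-139758581) stood at 24.0 to 32.3 CPM (median 26.3) with Phlpp1 and 15.3 to 21.8 CPM (median 17.3) without. Its log2 fold change was -0.59 (SE 0.10, edgeR adjusted p = 0.0254, called in 3 refits). Thbs2 (thrombospondin 2, a matricellular glycoprotein; ENSMUSG00000023885, chr17:14665500-14694235) stood at 43.0 to 52.2 CPM (median 44.5) and 34.6 to 40.1 CPM (median 36.7). Thbs2 fell by 0.32 on the log2 scale (SE 0.06, edgeR adjusted p = 0.0395, called in 2 refits), the opposite direction to Tnc, another matricellular glycoprotein. Neither Ism1 nor Thbs2 overlapped between groups, and both changed by nearly the same amount in each Phlpp2 background: by -0.55 and -0.62 for Ism1, and by -0.32 in each for Thbs2.

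Bace2, a membrane protease that cleaves the amyloid precursor protein and PMEL (ENSMUSG00000040605, chr16:97356742-97442936), had the largest fall by the naming rule away from chromosome 1. It stood at 1.48 to 2.1 CPM (median 1.71) with Phlpp1 and 0.606 to 1.09 CPM (median 0.832) without, with no overlap. The log2 fold change of Bace2 was -1.10 (SE 0.17, edgeR adjusted p = 0.0145, called in all 12 refits), and it was -1.01 with an edgeR adjusted p of 0.106 without the low-Xist libraries. Dpysl3, a cytoskeletal protein of the CRMP family (ENSMUSG00000024501, chr18:43320984-43438286), stood at 35.9 to 43.8 CPM (median 37.7) and 21 to 32.2 CPM (median 27.3), a log2 fold change of -0.56 (SE 0.09, edgeR adjusted p = 0.0218). Slc43a2, an amino acid transporter (ENSMUSG00000038178, chr11:75531694-75577575), stood at 11.4 to 14.1 CPM (median 13.2) and 7.57 to 10.3 CPM (median 9.17), a log2 fold change of -0.52 (SE 0.08, edgeR adjusted p = 0.0179). Each was called in 7 refits, and in each the lowest library was Phlpp1 KO 1. Gm45606 overlaps Slc43a2 on the other strand, and 305 bases of the Slc43a2 transcript are identical to it. Tmtc1, an enzyme of the endoplasmic reticulum, and S100a16, a calcium-binding protein, also fell without overlap, by 0.51 and 0.33 on the log2 scale (edgeR adjusted p = 0.0338 and 0.0308, 3 refits each). Rps4l overlaps Tmtc1 on the other strand.

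On chromosome 12, 3 genes fell that lie near each other, with starts from 72073428 to 73964481. Their nearness was not tested. Dhrs7, a dehydrogenase of the short-chain family (ENSMUSG00000021094, chr12:72650353-72664909), stood at 32.5 to 42.5 CPM (median 41.0) with Phlpp1 and 19 to 30.3 CPM (median 24.6) without. Snapc1, a subunit of the complex that starts transcription of small nuclear RNAs (ENSMUSG00000021113, chr12:73964481-73988966), stood at 34.0 to 50.9 CPM (median 44.8) and 17.9 to 36.3 CPM (median 26). L3hypdh, an enzyme of hydroxyproline breakdown (ENSMUSG00000019718, chr12:72073428-72085439), stood at 6.88 to 8.63 CPM (median 7.69) and 3.90 to 6.44 CPM (median 4.85). Snapc1 overlapped, since Phlpp1/2 KO 3 lay above WT 1, while Dhrs7 and L3hypdh did not. Of the Snapc1 transcript, 298 bases are identical to Gm49321. The log2 fold changes were -0.68 for Dhrs7 (SE 0.10, edgeR adjusted p = 0.0145), -0.77 for Snapc1 (SE 0.10, edgeR adjusted p = 0.00623) and -0.64 for L3hypdh (SE 0.09, edgeR adjusted p = 0.00907). Snapc1 and L3hypdh were called in all 12 refits and Dhrs7 in 11, and without the low-Xist libraries their edgeR adjusted p ran from 0.0634 to 0.0878. Their log2 fold changes were -0.95, -0.95 and -0.72 for Dhrs7, Snapc1 and L3hypdh where Phlpp2 was present and -0.42, -0.61 and -0.58 where it was lost, with edgeR adjusted p for the difference of 0.151, 0.432 and 0.785 (DESeq2 called that of Dhrs7). With Cdca4, chromosome 12 held 4 called genes of 558 tested (0.717%, against 0.254% of all tested genes).

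The other called genes away from chromosome 1 were chosen for mention after their values were seen. Gm13835, a processed pseudogene with 4 copies among reference transcripts, the longest match being 685 identical bases, in the proteasome gene Psma3, stood at 2.87 to 6.38 CPM with Phlpp1 and 8.03 to 12.4 CPM without (log2 fold change 1.35, SE 0.16, edgeR adjusted p = 0.00203), and reads may be split among these genes. Tacr1, the substance P receptor, was at 0.0662 to 0.217 CPM and 0.353 to 0.788 CPM, few counts per library. Lower without Phlpp1 were Fcgrt, the neonatal Fc receptor, by 0.41, Il17rc, a receptor subunit for interleukin 17, by 0.38, and the long intergenic RNA Gm13293, by 1.26 on the log2 scale (edgeR adjusted p = 0.0331, 0.0358 and 0.0179). The pseudogene Mid1-ps1, placed on the Y chromosome and 99.6% identical to Mid1 over 1142 bases, was at 0.136 to 0.868 CPM with Phlpp1 and 0 to 0.122 CPM without, so its assignment is uncertain. Zfand2a, a zinc finger gene of the heat shock and arsenite response, stood at 70.8 to 97.1 CPM and 95.7 to 105 CPM. Zfand2a overlapped through WT 1 and rose by 0.30 on the log2 scale (SE 0.06, edgeR adjusted p = 0.0455, called in 3 refits).

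Called genes were frequent around Phlpp1 itself. Within 20 Mb of its start, 12 of 146 tested genes were called (8.22%, against 0.254% of all tested genes), 11 of them other than Phlpp1. From 20 to 40 Mb there was 1 of 249, Wdfy1. On the rest of chromosome 1 edgeR called 0 of 635, with 85 at an unadjusted p under 0.05 (limma-voom called 0 and DESeq2 6), and on other chromosomes 29 of 15535 (0.187%) were called. All 12 called neighbours within 40 Mb lay on the lower-coordinate side of Phlpp1, at 0.653 to 26.5 Mb from its start. Fewer tested genes within 20 Mb lay on the higher-coordinate side, and the difference in calls between sides was not tested. On that side Kdsr, at 0.549 Mb, and Prelp, at 27.7 Mb, came near the threshold (edgeR adjusted p = 0.073 and 0.0684). Whether sequence of the targeted cells' strain was carried along with the knockout allele was not tested. Without the low-Xist libraries 6 of the 10 called genes lay within 20 Mb. Refits without 1 library called between 7 and 20 genes there, and between 18 and 555 over all tested genes. The 20 came from the refit without Phlpp2 KO 1, which called 555, so these counts cannot be compared directly.

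**Figure D3:**
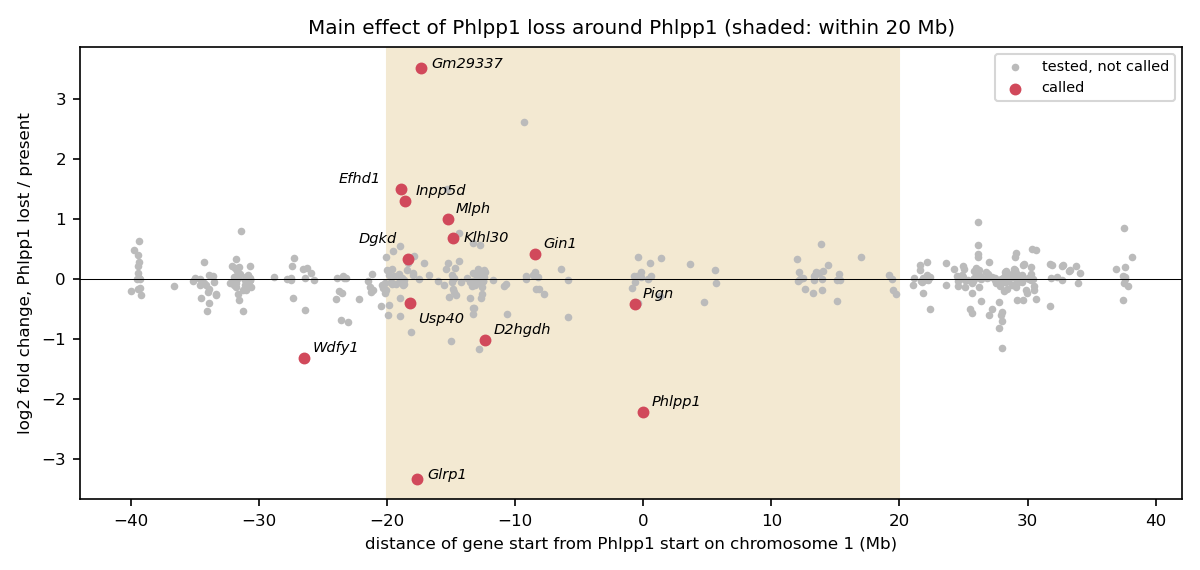
Each point is a tested gene of chromosome 1 within 40 Mb of Phlpp1, placed by the distance of its start from that of Phlpp1 in Mb and by its log2 fold change with Phlpp1 loss; red points are called and the shaded band spans 20 Mb to each side. The called neighbours sit left of Phlpp1, from Pign close by to Wdfy1 at 26.5 Mb, and point in both directions.

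Among the neighbours that rose was Mlph (melanophilin, a linker of organelles to myosin; ENSMUSG00000026303, chr1:90915085-90951142). It stood at 11.5 to 16.7 CPM (median 12.8) with Phlpp1 and 24.2 to 29.1 CPM (median 27.5) without, and the groups were far apart. Mlph changed on the log2 scale by 1.00 (SE 0.09, edgeR adjusted p = 0.00021, and 0.00669 without the low-Xist libraries). Efhd1, a calcium-binding mitochondrial protein (ENSMUSG00000026255, chr1:87264363-87310839), stood at 0.331 to 0.687 CPM (median 0.446) and 1.09 to 1.62 CPM (median 1.33), a log2 fold change of 1.49 (SE 0.18, edgeR adjusted p = 0.00242). Inpp5d, which encodes the lipid phosphatase SHIP1 that acts on the PI3K product PIP3 (ENSMUSG00000026288, chr1:87620312-87720507), stood at 0.383 to 1.32 CPM (median 1.07) and 1.90 to 3.29 CPM (median 2.2). Efhd1 and Inpp5d were low genes, but neither overlapped between groups. Of the Efhd1 transcript, 257 bases are identical to Efhd1os. Inpp5d changed by 1.3 on the log2 scale (SE 0.23, edgeR adjusted p = 0.0358), was called in 3 of 12 refits and in neither Phlpp2 background by itself, and had an adjusted p of 0.0502 in limma-voom.

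Klhl30, a kelch-like gene, stood at 5.72 to 10.1 CPM (median 6.33) with Phlpp1 and 9.56 to 13.1 CPM (median 10.7) without, overlapping only through Phlpp2 KO 1 (log2 fold change 0.68, SE 0.12, edgeR adjusted p = 0.0358). Gin1, a gene derived from a transposon integrase, stood at 8.56 to 10.8 CPM (median 10.2) and 11.9 to 15.0 CPM (median 13.3), with a log2 fold change of 0.41 (SE 0.07, edgeR adjusted p = 0.0395). Both were called in 2 of 12 refits, and Gin1 overlaps Ppip5k2 on the other strand. The long intergenic RNA Gm29337, chosen after its values were seen, rose from 0.0362 to 0.153 CPM with Phlpp1 to 0.797 to 1.32 CPM without, and was called in every refit.

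The neighbours that fell included D2hgdh (the dehydrogenase of D-2-hydroxyglutarate; ENSMUSG00000073609, chr1:93824909-93852348). It stood at 9.23 to 11.8 CPM (median 10.3) with Phlpp1 and 4.62 to 5.32 CPM (median 5.12) without, and the groups were well separated. The log2 fold change of D2hgdh was -1.02 (SE 0.08, edgeR adjusted p = 2.66e-05), and 567 bases of its transcript match the pseudogenes Gm18666 and Gm7889 at up to 99.6%. Wdfy1, an adaptor of endosomal Toll-like receptor signalling (ENSMUSG00000073643, chr1:79702262-79776143), stood at 15.6 to 28.3 CPM (median 22.9) and 7.77 to 9.30 CPM (median 8.55). The log2 fold change of Wdfy1 was -1.32 (SE 0.12, edgeR adjusted p = 0.000265), larger where Phlpp2 was lost (-1.63) than where it was present (-0.99), a difference with an edgeR adjusted p of 0.151. DESeq2 called that difference. The Phlpp1-present levels of Wdfy1 were 15.6 to 21.5 CPM in WT and 24.2 to 28.3 CPM in Phlpp2 KO. Mrpl44 overlaps Wdfy1 on the other strand, and 3 genes match its transcript, the longest match being 166 bases at 95.2%.

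A pair of overlapping neighbours on opposite strands moved in opposite directions. Dgkd, a diacylglycerol kinase (ENSMUSG00000070738, chr1:87853287-87945180), stood at 54.6 to 63.7 CPM (median 61.9) with Phlpp1 and 73.0 to 80.3 CPM (median 74.4) without (log2 fold change 0.32, SE 0.04, edgeR adjusted p = 0.00298). Usp40, a ubiquitin protease (ENSMUSG00000005501, chr1:87945119-88008551), stood at 47.9 to 55.0 CPM (median 51.5) and 35.9 to 42.7 CPM (median 38.4), a log2 fold change of -0.40 (SE 0.05, edgeR adjusted p = 0.00643). Both were called in all 12 refits, their groups did not overlap, and reads in their shared end cannot be assigned without strand. Usp40 and the remaining neighbours Pign and Glrp1 were chosen after their values were seen. Pign, an enzyme of glycosylphosphatidylinositol anchor synthesis that starts 0.653 Mb from Phlpp1, stood at 44.7 to 54.0 CPM (median 48.9) and 31.6 to 42.2 CPM (median 36.4), with a log2 fold change of -0.43 (SE 0.08, edgeR adjusted p = 0.0449, called in 2 refits). Gm20302 overlaps Pign on the other strand. Glrp1 stood at 0.252 to 0.460 CPM with Phlpp1, and without it at 0 in all 3 Phlpp1 KO libraries and at most at 0.122 CPM in Phlpp1/2 KO.

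Promoter sequence was read for called genes to show which short motifs of kinase-responsive and immune transcription factors their starts hold. RefSeq start sites on GRCm38.p6 matched 11160 tested genes and 31 of the 42 called (14 higher and 17 lower), and the 250 bases before each start were searched on both strands. The cyclic AMP response element TGACGTCA was in 1 of 14 higher genes and 0 of 17 lower genes, against 2.97% of all matched genes. The AP-1 motif TGANTCA was in 1 and 3 (5.85% of all), the E-box CACGTG in 1 and 0 (9.71%), the interferon element, GAAA and again GAAA with 2 bases of any kind between, in 0 and 1 (3.03%), the forkhead motif GTAAACA in 0 and 1 (2.66%) and the CArG box of serum response factor in 0 and 0 (1.5%). Of these, none was shared widely by the called genes. Windows of 3 genes are printed, Mlph and Zfand2a that rose and Cxcl14 that fell, 5′ to 3′ toward the start site, with the motif in capitals. Mlph (chr1:90914850-90915099, plus strand) holds the E-box, Zfand2a (chr5:139484492-139484741, minus strand) the cyclic AMP response element and Cxcl14 (chr13:56296552-56296801, minus strand) the interferon element. A match describes letters and not binding, and the RefSeq start of Mlph was not that of a GENCODE transcript.
Mlph: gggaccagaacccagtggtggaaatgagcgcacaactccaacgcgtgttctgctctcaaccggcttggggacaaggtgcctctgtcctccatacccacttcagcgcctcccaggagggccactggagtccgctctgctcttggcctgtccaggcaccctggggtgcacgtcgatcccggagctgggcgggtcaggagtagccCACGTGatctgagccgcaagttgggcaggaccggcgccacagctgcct
Zfand2a: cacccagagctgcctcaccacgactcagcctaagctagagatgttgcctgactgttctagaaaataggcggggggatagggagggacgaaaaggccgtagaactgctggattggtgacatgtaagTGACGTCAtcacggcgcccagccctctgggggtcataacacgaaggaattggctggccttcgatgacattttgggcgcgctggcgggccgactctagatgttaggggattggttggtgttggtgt
Cxcl14: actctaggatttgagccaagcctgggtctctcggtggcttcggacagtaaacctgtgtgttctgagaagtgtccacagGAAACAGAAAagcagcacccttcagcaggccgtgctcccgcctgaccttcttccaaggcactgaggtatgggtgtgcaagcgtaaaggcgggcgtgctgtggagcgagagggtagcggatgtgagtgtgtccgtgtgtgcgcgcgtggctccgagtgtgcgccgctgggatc

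The main effect pools 2 comparisons that share no library: Phlpp1 KO against WT, where Phlpp2 is present, and Phlpp1/2 KO against Phlpp2 KO, where Phlpp2 is lost. Taken singly, the first called 89 genes (0.537% of tested genes, 35 or 0.211% higher and 54 or 0.326% lower) and the second 12 (0.0724%, 6 or 0.0362% in each direction). Unadjusted p values under 0.05 were held by 20.4% of tested genes in the first and 8.84% in the second. Of the 42 genes of the main effect, 24 were called in the first, 10 in the second, 6 in both and 14 in neither. Those called in both were Phlpp1, D2hgdh, Gm29337, Mlph, Wdfy1 and Dgkd, all on chromosome 1. The 4 called in the second only were Usp40, Pign, Fosb and Zfand2a. All 42 had the same sign in both backgrounds, as did 50.7% of all tested genes, but the pooled fit that chose the 42 favours such genes. Their median absolute log2 fold change was 0.69 where Phlpp2 was present and 0.61 where it was lost, and 27 of the 42 changed more where it was present.

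Among the 14 genes called in neither background were several with like changes in both, although Inpp5d changed by 1.06 and 1.53. Cd300lb changed by 0.52 and 0.61 on the log2 scale in the first and second comparison, Slc1a3 by 0.31 and 0.31, and Stx3 by 0.33 and 0.36. For the falls, S100a16 changed by -0.37 and -0.29, and Tmtc1 by -0.55 and -0.46. Each missed the threshold in the 3 against 3 comparisons, at an edgeR adjusted p of 0.0632 to 0.0925 in the first for Cd300lb, Slc1a3, Stx3, S100a16, Tmtc1 and Ism1. Those of the same genes in the second were 0.146 to 0.468.

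Calls of a single background carried over in part. Of the 89 genes called in Phlpp1 KO against WT, 65 (73.0%) had the same sign in Phlpp1/2 KO against Phlpp2 KO, where 50.7% of all tested genes did, 30 had the same sign with an unadjusted p under 0.05, and 6 (6.74%) were called. Beyond 40 Mb from Phlpp1 there were 80 of the 89, of which 56 had the same sign, 21 of these with an unadjusted p under 0.05, and edgeR called 0. Of the 89, 24 were called in the main effect and 65 were not. Among those not carried into the main effect was Mcub, an inhibitory subunit of the mitochondrial calcium uniporter, which changed by -1.13 where Phlpp2 was present and -0.11 where it was lost. Its main effect was -0.60 (SE 0.20, edgeR adjusted p = 0.231). Igfbp3, which binds insulin-like growth factors, changed by 0.70 and 0.22, with a main effect of 0.46 (SE 0.10, edgeR adjusted p = 0.0765). Dbp, a transcription factor of the circadian output, changed by -0.61 and -0.12, with a main effect of -0.37 (SE 0.10, edgeR adjusted p = 0.14). EdgeR did not call the difference between backgrounds for Mcub, Igfbp3 or Dbp. In the other direction, all 12 genes called in Phlpp1/2 KO against Phlpp2 KO had the same sign in Phlpp1 KO against WT, 6 of them were called there, and 10 were called in the main effect. Across all tested genes the log2 fold changes of the 2 comparisons had a Pearson r of 0.101 and a Spearman rho of 0.0345, given as a description across genes.

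**Figure D4:**
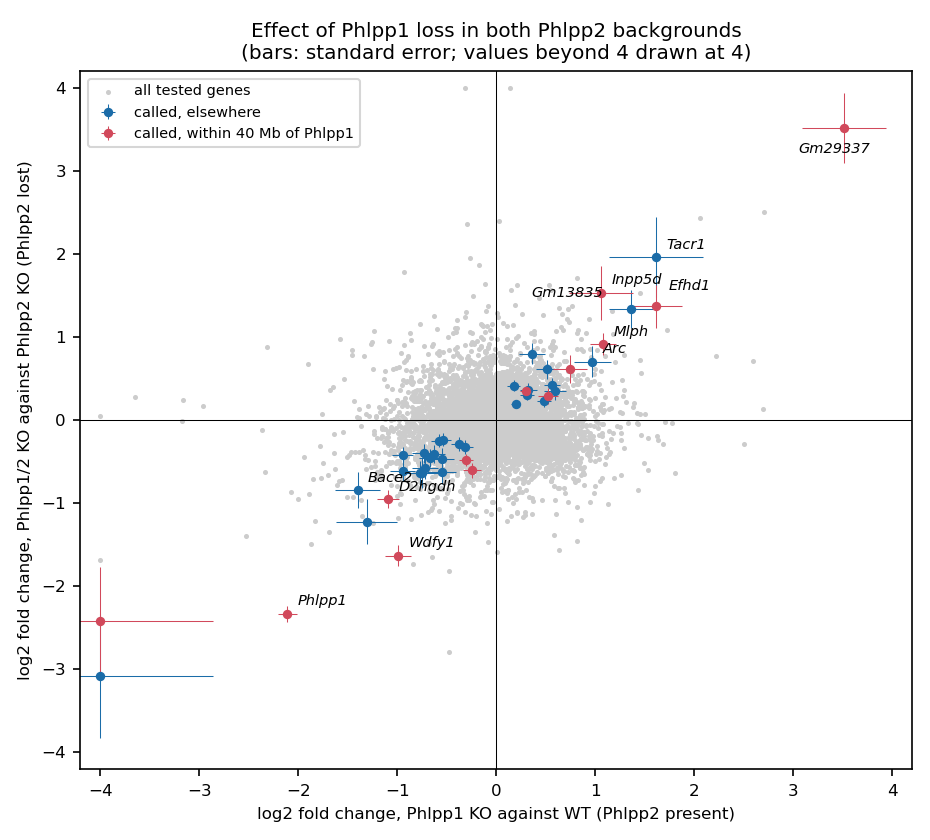
Each point is a tested gene, with its log2 fold change in Phlpp1 KO against WT on the x axis and in Phlpp1/2 KO against Phlpp2 KO on the y axis; coloured points are the 42 called genes with SE bars, red within 40 Mb of Phlpp1 and blue elsewhere. The called genes lie at the lower left and upper right, while the grey cloud of all 16565 genes shows little slope.

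The additive model assumes that Phlpp1 loss acts alike in both backgrounds. For the 42 called genes edgeR called 0 differences between backgrounds, with 9 at an unadjusted p under 0.05 and a smallest adjusted p of 0.151, limma-voom called 0, and DESeq2 called 2, Dhrs7 and Wdfy1. The additive fit that chose the 42 favours genes with like changes in both backgrounds, so these counts cannot test the assumption. Over all tested genes edgeR called 8 differences (0.0483%, of which 0.0302% higher and 0.0181% lower, with 14.5% at an unadjusted p under 0.05), and in each the 3 WT libraries lay wholly on 1 side of the other 9. Of the 8, 7 are pseudogenes, and reads of near-identical copies may be split among them. Rps2-ps10, a pseudogene of a ribosomal protein, averaged 544 CPM in WT and 17.7, 18.7 and 18.4 CPM in Phlpp2 KO, Phlpp1 KO and Phlpp1/2 KO. The mitochondrial gene mt-Nd3 averaged 19.7 CPM in WT and 1.63, 1.56 and 1.98 CPM in the same 3 groups. The other 6 were Gm9825, Gm28438, Gm10222, Gm6139, Rps2-ps13 and Gm28437. With only nuclear protein-coding genes in the fit, edgeR called 0 such differences. For the Phlpp2 term, 0 of the 42 genes were called by edgeR, with a smallest adjusted p of 0.498.

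The pathway closest to the enzyme had a median change near 0 at the transcript level, with members moving in both directions. Counts for this and later lists stand beside those of all 16565 tested genes. Of these, 13.1% had an unadjusted p under 0.05, and DESeq2 called 116 higher and 214 lower. Of 29 tested genes of the PI3K, AKT and mTOR pathway, 15 were above 0 and 14 below, with a median log2 fold change of 0.01. Over all tested genes the median was 0.00, with 50.8% above 0 and 49.2% below. EdgeR called 1 of the 29, Inpp5d, with 3 higher and 3 lower at an unadjusted p under 0.05. DESeq2 called 1 higher and limma-voom 0. Akt1 and Akt2 did not pass the test, and Akt1 was named for its place as a PHLPP target with its values seen. Akt1 stood at 360 to 404 CPM (median 382) with Phlpp1 and 367 to 416 CPM (median 395) without, a log2 fold change of 0.05 (SE 0.05, edgeR adjusted p = 0.704). Akt2 changed by -0.11 (SE 0.06, edgeR adjusted p = 0.505). After Inpp5d, Irs1, an insulin receptor substrate, had the smallest adjusted p in the list, with a change of -0.33 (SE 0.10, edgeR adjusted p = 0.197). Both lie on chromosome 1 within 40 Mb of Phlpp1, Inpp5d starting 18.6 Mb and Irs1 23.9 Mb from it on the lower-coordinate side. Of 19 kinases that PHLPP enzymes act on and partners of PHLPP, edgeR called 0, with 1 at an unadjusted p under 0.05, and DESeq2 and limma-voom called 0.

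FOXO factors, which AKT phosphorylates and keeps out of the nucleus, and genes they activate were mostly below 0. Of 30 tested, 6 were above 0 and 24 below, with a median of -0.13. In the main effect edgeR called 0 of them, with 13 lower and 1 higher at an unadjusted p under 0.05, DESeq2 called 3 lower and limma-voom 0. Where Phlpp2 was present 26 of the 30 were below 0 (median -0.20), and where it was lost 18 were (median -0.08), a difference that was not tested. Nearest to a call was Txnip, a thioredoxin inhibitor that restrains glucose uptake, at 162 to 206 CPM (median 192) with Phlpp1 and 136 to 169 CPM (median 149) without. Txnip overlapped between groups, with a change of -0.29 (SE 0.06, edgeR adjusted p = 0.0521). Pink1, a kinase of mitochondrial quality control, changed by -0.26 (SE 0.06, edgeR adjusted p = 0.109) and Foxo1 by -0.19 (SE 0.05, edgeR adjusted p = 0.136).

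Immediate early genes were mostly above 0 and ERK feedback genes were mixed. Of 27 tested immediate early genes, 22 were above 0 and 5 below (median 0.10), and 2 rose at the threshold, Arc and Fosb, and DESeq2 called 5 higher. Without the low-Xist libraries edgeR called 0 of them, and the median was 0.14. Egr1, a zinc finger factor induced by ERK, stood at 52.0 to 79.3 CPM (median 64.4) with Phlpp1 and 68.7 to 113 CPM (median 86.9) without, overlapping, with a change of 0.46 (SE 0.09, edgeR adjusted p = 0.0586). Fosl1, another AP-1 subunit, changed by 0.35 (SE 0.08, edgeR adjusted p = 0.0786). Of 20 ERK feedback genes, which encode phosphatases and Sprouty proteins that damp the pathway, 11 were above 0 and 9 below. EdgeR and limma-voom called 0 of these, with 4 higher at an unadjusted p under 0.05, and DESeq2 called 2 higher. Spry4, a Sprouty protein, did not overlap between groups, at 9.91 to 11.8 CPM with Phlpp1 and 12.1 to 14 CPM without, but its change of 0.25 missed the threshold (SE 0.06, edgeR adjusted p = 0.13).

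Immune lists lay mostly below 0, with lower medians where Phlpp2 was present, a difference that was not tested. Of 28 tested interferon response genes, 26 were below 0 and 2 above, with a median log2 fold change of -0.39, which was -0.58 where Phlpp2 was present and -0.19 where it was lost. EdgeR and limma-voom called 0 of them in the main effect, with 17 lower at an unadjusted p under 0.05, and DESeq2 called 5 lower. The median without the low-Xist libraries was -0.34. Their summed level was 193 to 250 CPM (median 226) with Phlpp1 and 166 to 210 CPM (median 192) without, which overlapped. Xaf1, an interferon-induced partner of XIAP, stood at 0.977 to 1.91 CPM (median 1.48) and 0.437 to 0.945 CPM (median 0.816) with no overlap, a change of -0.86 (SE 0.21, edgeR adjusted p = 0.108). Ifit3, an interferon-induced protein with tetratricopeptide repeats, changed by -0.47 (SE 0.12, edgeR adjusted p = 0.14), and Irf7, a transcription factor of the interferon loop, by -0.61 (SE 0.17, edgeR adjusted p = 0.163).

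Antigen presentation followed the same sign. Of 20 tested members, 18 were below 0 (median -0.26), DESeq2 called 4 lower and limma-voom 0, and in edgeR 1 fell at the threshold, H2-DMb1, a chaperone subunit that loads peptide on MHC class II. H2-DMb1 stood at 2.89 to 5.30 CPM (median 4.49) with Phlpp1 and 2.11 to 3.12 CPM (median 2.68) without, overlapping through Phlpp2 KO 1. Its change was -0.69 (SE 0.13, edgeR adjusted p = 0.0449), it was called in 1 of the 12 refits, and its copy H2-DMb2 is 95.7% identical over 1081 bases. H2-K1, an MHC class I heavy chain, stood at 62.2 to 78.8 CPM (median 67.1) and 46.1 to 58.1 CPM (median 55.0) with no overlap, a change of -0.34 (SE 0.07, edgeR adjusted p = 0.0561). Of 31 inflammatory and NF-kB response genes, 21 were below 0 (median -0.18) and Cxcl14 was the 1 called. Of 13 tested macrophage and osteoclast markers, 9 were above 0 and 4 below, with 1 at an unadjusted p under 0.05 and 0 called by edgeR, DESeq2 or limma-voom. Their summed level was 161 to 186 CPM with Phlpp1 and 161 to 188 CPM without.

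Chondrocyte genes did not pass the test. Col2a1, the main cartilage collagen, stood at 26071 to 40258 CPM (median 30154) with Phlpp1 and 20753 to 38174 CPM (median 29681) without, a change of -0.06 (SE 0.13, edgeR adjusted p = 0.886). Acan, the main cartilage proteoglycan, stood at 2993 to 4924 CPM (median 3692) and 3287 to 4740 CPM (median 3960), a change of 0.08 (SE 0.09, edgeR adjusted p = 0.77). Both overlapped broadly between groups. Sox9, the factor that specifies chondrocytes, changed by -0.18 (SE 0.13, edgeR adjusted p = 0.591), at 215 to 407 CPM with Phlpp1 and 289 to 349 CPM without. Of 23 tested cartilage matrix genes, 10 were above 0 and 13 below, edgeR and limma-voom called 0, with 1 higher and 4 lower at an unadjusted p under 0.05, and DESeq2 called 2 lower. Where Phlpp2 was present 13 of the 23 were above 0 (median 0.06), and where it was lost 19 were below 0 (median -0.15). Without the low-Xist libraries 20 of the 23 were below 0 (median -0.15, against -0.06). Prelp, a leucine-rich matrix protein, came nearest, at 86.0 to 168 CPM (median 140) with Phlpp1 and 48.8 to 95.9 CPM (median 79.6) without, overlapping, with a change of -0.83 (SE 0.17, edgeR adjusted p = 0.0684). Prelp starts 27.7 Mb from Phlpp1 on chromosome 1. Fgf18, a growth factor of cartilage, stood at 0.901 to 1.92 CPM (median 1.2) and 0.734 to 1.57 CPM (median 1.02), a change of -0.26 (SE 0.22, edgeR adjusted p = 0.669).

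Genes of maturation and mineralisation were mostly below 0. Of 21 tested hypertrophy and mineralisation genes, 17 were below 0 and 4 above, with a median of -0.27. In the main effect edgeR and limma-voom called 0, with 1 higher and 6 lower at an unadjusted p under 0.05, and DESeq2 called 1 higher and 3 lower. Where Phlpp2 was present, 8 of the 21 were above 0 (median -0.18) and edgeR called 1 higher. Where it was lost, 4 were above 0 (median -0.24). The list's summed level did not fall, at 5812 to 8451 CPM (median 6308) with Phlpp1 and 5837 to 6759 CPM (median 6483) without. Runx2, a factor that drives hypertrophy and bone formation, stood at 39.6 to 54.2 CPM (median 46.8) with Phlpp1 and 34.2 to 42.6 CPM (median 38.3) without, overlapping, with a change of -0.28 (SE 0.08, edgeR adjusted p = 0.145). Mmp13, a collagenase of late hypertrophy, changed by -0.45 (SE 0.15, edgeR adjusted p = 0.248), at 157 to 280 CPM and 87.9 to 210 CPM. Col10a1, the collagen of hypertrophic cells, changed by -0.22 (SE 0.23, edgeR adjusted p = 0.747), at 559 to 1194 CPM and 387 to 1014 CPM. Ihh, the hedgehog ligand of prehypertrophic cells, and Pth1r, the receptor for PTHrP, changed by -0.54 and -0.43 (SE 0.27 and 0.21, edgeR adjusted p = 0.437 and 0.422). Against the list's direction, Slc20a1, a phosphate importer, stood at 128 to 155 CPM (median 146) and 157 to 205 CPM (median 177) with no overlap, a change of 0.30 (SE 0.06, edgeR adjusted p = 0.0608). In bulk RNA fewer cells of a stage and less RNA per cell cannot be told apart. Osteoblast markers, 6 tested, were below 0 in 5 (median -0.37, 0 called by edgeR, 3 lower at an unadjusted p under 0.05, 1 by DESeq2), with a summed level of 636 to 1210 CPM with Phlpp1 and 531 to 783 CPM without, and their part in the maturation list was not tested.

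Signals and proteases around the growth plate followed in smaller steps. Of 20 hedgehog and PTHrP signalling genes, 16 were below 0 (median -0.09), with 4 lower at an unadjusted p under 0.05 and 0 called by edgeR, DESeq2 or limma-voom. Ptch1, the hedgehog receptor and a target of the pathway, changed by -0.29 (SE 0.08, edgeR adjusted p = 0.181). Of 24 matrix proteases and inhibitors, 21 were below 0 (median -0.18), with 5 lower at an unadjusted p under 0.05 and 0 called by any of the 3 tools. Mmp19, a matrix metalloproteinase, stood at 1.27 to 1.95 CPM and 0.808 to 1.18 CPM with no overlap, a change of -0.52 (SE 0.15, edgeR adjusted p = 0.181). Of 29 growth factor ligands and binding proteins, 18 were below 0, edgeR and limma-voom called 0, with 1 higher and 5 lower at an unadjusted p under 0.05, and DESeq2 called 1 higher.

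In some large lists nearly all members had the same sign, at small sizes. All 34 cell cycle genes tested were above 0 with a median of 0.12, and 30 of 34 were without the low-Xist libraries. Where Phlpp2 was present 33 of 34 were above 0 (median 0.13), and where it was lost 24 were (median 0.08). EdgeR, DESeq2 and limma-voom called 0 of them, with 1 at an unadjusted p under 0.05, and their summed level overlapped, at 3356 to 4637 CPM with Phlpp1 and 3807 to 4374 CPM without. E2f1, a factor of the entry into DNA replication, changed by 0.17 (SE 0.06, edgeR adjusted p = 0.263). Of 35 glycolysis and hypoxia response genes, 33 were below 0 (median -0.09, and -0.20 and -0.03 where Phlpp2 was present and lost). Pfkfb3, which makes an activator of glycolysis, stood at 70.5 to 106 CPM (median 89.1) and 46.5 to 72.0 CPM (median 63.4), a change of -0.49 (SE 0.11, edgeR adjusted p = 0.108). EdgeR and limma-voom called 0 glycolysis genes, with 5 lower at an unadjusted p under 0.05, and DESeq2 called 1 lower. Of 42 ribosomal protein genes, 38 were below 0 in the main effect (median -0.07), but 41 of 42 were below 0 where Phlpp2 was present and 12 of 42 where it was lost. EdgeR and limma-voom called 0 ribosomal protein genes, with 2 at an unadjusted p under 0.05, and DESeq2 called 1 higher. Of 25 unfolded protein response genes, 20 were below 0 (median -0.09), with 11 lower and 2 higher at an unadjusted p under 0.05, 0 called by edgeR and limma-voom and 3 lower by DESeq2. Creld2, a folding factor of the endoplasmic reticulum, stood at 85.5 to 90.2 CPM and 74.5 to 84.6 CPM with no overlap, a change of -0.18 (SE 0.04, edgeR adjusted p = 0.0968).

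**Figure D5:**
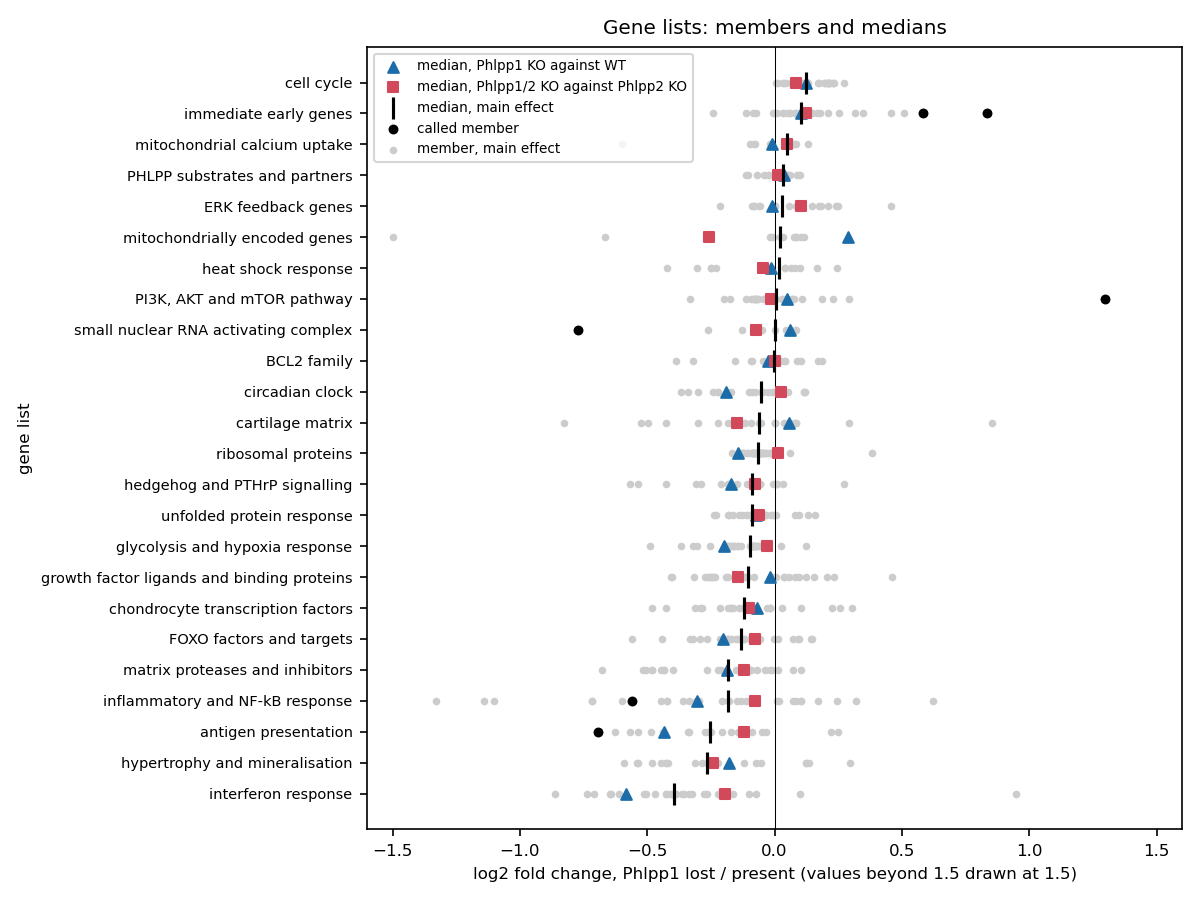
For each of 24 gene lists, grey points are members placed by log2 fold change with Phlpp1 loss, black points the called members, black bars the list's median, and triangles and squares the medians in Phlpp1 KO against WT and in Phlpp1/2 KO against Phlpp2 KO. Interferon response has the lowest median at -0.39 and cell cycle the highest at 0.12, and the triangle and square of the interferon list stand at -0.58 and -0.19.

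The remaining lists were mixed. Of 23 circadian clock genes 16 were below 0 (median -0.06), of 15 BCL2 family genes 8, of 12 genes of mitochondrial calcium uptake 5, of 14 heat shock genes 7 and of 13 mitochondrially encoded genes 6. EdgeR and limma-voom called 0 in each of these lists, while DESeq2 called 1 clock gene lower, 1 heat shock gene higher and 1 mitochondrially encoded gene lower. Mitochondrially encoded genes went opposite ways in the Phlpp2 backgrounds: 10 of 13 were above 0 where Phlpp2 was present (median 0.29, though mt-Nd3 and mt-Co3 were called lower there by edgeR), and 10 of 13 were below 0 where it was lost (median -0.26). The counts at an unadjusted p under 0.05 were 6 clock, 3 BCL2 family, 1 calcium uptake, 5 heat shock and 3 mitochondrially encoded genes. Of 24 chondrocyte transcription factors 19 were below 0 (median -0.12), with 0 called by edgeR and limma-voom, 4 at an unadjusted p under 0.05 and 1 lower by DESeq2. Of 9 genes of the small nuclear RNA activating complex, Snapc1 was the 1 called, and the median was 0.00. Skeletal muscle markers summed to 9.01 to 132 CPM with Phlpp1, the highest in WT 2, and 12 to 59.9 CPM without. Of 11 muscle markers tested, 10 were below 0 where Phlpp2 was present and 11 above 0 where it was lost. EdgeR called 0 markers of endothelium, fibroblast and perichondrium, keratinocyte, adipocyte, neuron and glia, or skeletal muscle, with 1, 2, 2, 1, 1 and 0 at an unadjusted p under 0.05. Limma-voom called 0 of these, and DESeq2 called 1 fibroblast and 1 neuron or glia marker lower. No marker of red blood cells, neutrophils or lymphocytes passed the filter on low counts.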

How the data were processed

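Bulk RNA of 12 samples was analysed from the raw gene counts that the authors deposited. The submitters' processing notes name bcl2fastq 2.17 for base calls, STAR 2.5.2b, the mm10 build, and Subread 1.5.2 with featureCounts. Not given in the sources used here are the annotation release, the strand setting and the treatment of multi-mapping reads. The library kit was the NEBNext Ultra II RNA kit, per the labels' protocols.

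Positions came from GENCODE release M21 (49056 of 49315 genes), and 174 genes without a symbol held 0.00419% of the counts. Counts were tested with edgeR 4.0.16 in R 4.3.3, after its filter on low counts by the 4 genotypes (32750 genes removed) and TMM scaling. An additive model (Phlpp2 lost, Phlpp1 lost, 9 residual degrees of freedom) was fitted with robust quasi-likelihood estimation, and a gene was called at a Benjamini-Hochberg adjusted p under 0.05. In the additive model the common biological coefficient of variation came to 0.115. Phlpp1 KO against WT, Phlpp1/2 KO against Phlpp2 KO and their difference were contrasts of a model with 1 term per genotype (8 residual degrees of freedom). An SE was taken as |log2 fold change| over the root of the F statistic. Alternatives were DESeq2 1.42.0, limma-voom (limma 3.58.1), other size factors, no filter, refits without each library, without both low-Xist libraries, a replicate block, nuclear protein-coding genes alone, other models and a 40 Mb window.

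The members, gene lists, rules and alternatives were chosen with earlier results of these data known. The text names up to 12 called rises and up to 12 called falls, largest first (at least 1 CPM in the higher group, no overlap of groups; predicted genes, Riken clones and pseudogenes skipped). It also names up to 10 genes called in the main effect but in neither Phlpp2 background by itself. Named too are 11 fixed genes of cartilage and PHLPP biology, and up to 4 members of a list, lowest adjusted p first, averaging 1 CPM or more. BLAST was used to look for copies of the called genes in the GENCODE transcripts, counting matches of 150 or more bases at 95% identity or more. Same-numbered samples did not deviate together (4 of 18 pairs with a correlation over 0.1), so the numbers were not taken as pairs. Some genes that the rule names are not reported here.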

Additional observations from a re-analysis of the deposited data

Results flagged for a closer look

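In groups of 6 libraries, 11 of 126 sets of values held 1 library far from the other 5; chance flags about 1 in 20 such sets. With Phlpp1 present, the library apart was WT 1 for Gm13835 (6.38 CPM), WT 2 for Slc1a3 (20.1 CPM) and for the summed skeletal muscle markers (132 CPM), Phlpp2 KO 2 for Tgm2 (32.4 CPM) and Gm13293 (2.45 CPM), and Phlpp2 KO 1 for Klhl30 (10.1 CPM), Sox9 (215 CPM) and Fgf18 (1.92 CPM). With Phlpp1 lost, it was Phlpp1 KO 1 for S100a16 (47.3 CPM), Phlpp1/2 KO 2 for Mid1-ps1 (0.122 CPM) and Phlpp1/2 KO 3 for the summed osteoblast markers (531 CPM).

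The effect of Phlpp1 loss differed between Phlpp2 backgrounds for 8 genes in edgeR's quasi-likelihood test of the difference. The effect where Phlpp2 was lost minus that where it was present was 4.91 on the log2 scale for Rps2-ps10, 3.13 for Gm9825, 3.93 for mt-Nd3, -2.78 for Gm28438, -1.73 for Gm10222, 2.57 for Gm6139, 1.23 for Rps2-ps13 and -0.93 for Gm28437.

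The 4 Y chromosome genes Ddx3y, Eif2s3y, Uty and Kdm5d summed to 108.5 CPM (3370 counts) in Phlpp1/2 KO 1, which is labelled female, and to at most 1.23 CPM in the other 11 libraries.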

How the results depend on the processing

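Calls of the main effect (42) numbered 330 with DESeq2 (116 higher, 214 lower), 125 without the low-count filter, 98 as the average of both genotype contrasts, 10 without both low-Xist libraries and 18 with the replicate block, and 18 to 555 in refits without 1 library. Of the 42, DESeq2 called 38 and gave no adjusted p for 4, limma-voom called 39 and the replicate block 18. Samples share only a number: same-numbered pairs had correlations of -0.16 to 0.30, and 1 library of 12 correlated best with its own number in every other genotype. Phlpp1 KO against WT (89) gave 998 with DESeq2 (611 higher, 387 lower), 461 without the filter, 245 with the replicate block, 18 without the low-Xist libraries, 58 over nuclear protein-coding genes, 1163 with 6 libraries alone and 16 to 647 in refits. Phlpp1/2 KO against Phlpp2 KO (12) gave 40 with DESeq2, 32 without the filter, 3 without the low-Xist libraries, 3 with 6 libraries alone and 4 to 132 in refits. Differences between backgrounds (8) numbered 635 with DESeq2, 183 without the filter, 308 with the replicate block, 4 without the low-Xist libraries, 0 over nuclear protein-coding genes and 5 to 1196 in refits. Called genes within 20 Mb (12) numbered 7 with the replicate block, 6 without the low-Xist libraries and 7 to 20 in refits. Called list members (6) numbered 40 with DESeq2, 17 without the filter, 3 with the replicate block, 0 without the low-Xist libraries, 17 as the average of contrasts and 2 to 55 in refits. The cause was not tested. Of single-gene values, 2995 kept their side of the threshold, 186 lost the call, 97 gained one, 36 without a call changed sign and none with a call did.

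With 3 libraries per genotype, a gene that missed the threshold is not shown to be unchanged. The low-Xist libraries are both on the Phlpp1-lost side, so low Xist and Phlpp1 loss cannot be told apart for them.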
